A study of Mus musculus with 4 samples.

Results

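The 8 genes described here encode the enzymes that build NAD+ from its vitamin precursors, together with the kinases that turn NAD+ into NADP+. They were taken as a fixed list from the 54464 genes of the deposited count matrix, and all 8 were found there. Liver nuclei came from 3 mice labelled WT and 3 mice labelled HNKO, and 5193 nuclei were assigned to these 6 mice through hashtag antibodies. HNKO mice are hepatocyte-specific Nampt knockouts by design, in which a Cre recombinase under the albumin promoter (Alb-Cre) deletes a floxed Nampt segment, whereas their WT littermates carry the floxed allele without Cre. Both are on the C57BL6/BomTac strain. The mice were adult females fed a purified control diet. The albumin promoter drives Cre in hepatocytes, and whether Cre also acted in cholangiocytes was not tested here.

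NAD+ carries electrons between metabolic enzymes and is also consumed by sirtuins, poly-ADP-ribose polymerases and CD38, so cells remake it all the time. In the salvage route, Nampt (nicotinamide phosphoribosyltransferase) turns nicotinamide into nicotinamide mononucleotide, and Nmrk1 (nicotinamide riboside kinase) makes the same mononucleotide from nicotinamide riboside. Nmnat1 in the nucleus and Nmnat3 in mitochondria complete NAD+ from mononucleotides. The Preiss-Handler route starts from nicotinic acid with Naprt and ends with Nadsyn1, which amidates the last intermediate and also serves the de novo route from tryptophan. Nadk in the cytosol and Nadk2 in mitochondria phosphorylate NAD+ to NADP+. In the liver, hepatocytes near the portal vein (periportal) and near the central vein (pericentral) divide metabolic work between them.

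Each mouse gave between 629 and 1063 nuclei and between 3766532 and 7763269 unique molecular identifiers (UMIs, counts of captured RNA molecules). Hepatocytes made up most of them, with 562 to 847 nuclei per mouse, whereas endothelial nuclei numbered 26 to 71 and stellate nuclei 16 to 43. HNKO mouse 3 stood apart. Its called hashtag held 48.95% of the hashtag counts against 66.11% to 80.27% in the other mice, and the 5 hepatocyte markers (Alb, Apob, Ttr, Serpina1c and Cps1) summed to 8931 CPM (UMIs of the genes, scaled to a total of 1e6 in the sum) in its hepatocyte nuclei against 20180 to 26670 CPM in the other mice. The 5 defining markers of endothelial, stellate, Kupffer and cholangiocyte nuclei had their highest sums in the type they define (8112 to 12170 CPM for endothelial nuclei). The 5 CD45+ markers did not separate CD45+ nuclei (3542 to 6331 CPM) from Kupffer nuclei (3599 to 4958 CPM), and in HNKO mice 2 and 3 they were higher in Kupffer nuclei. All 5193 nuclear barcodes were distinct, and which of the 2 RNA pools a nucleus came from is not given in the sources used here.

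The members lie on 6 chromosomes (GENCODE release M21, GRCm38). Nampt occupies chr12:32819545-32853349 on the plus strand and shares 5033 bases with the noncoding Gdap10 on the same strand. Naprt occupies chr15:75890956-75894481 on the minus strand and shares 277 bases with Eef1d on that strand. Nmnat1 (chr4:149467572-149485202, minus strand) overlaps Tmem274 on the opposite strand, and Nmnat3 (chr9:98287435-98420438, plus strand) overlaps Gm28530 on the same strand. UMIs in the shared stretches could come from either gene. Nadsyn1 (chr7:143795584-143822849, minus strand), Nmrk1 (chr19:18631950-18652428, plus strand), Nadk (chr4:155562378-155591001, plus strand) and Nadk2 (chr15:9071260-9110891, plus strand) overlap no other annotated gene.

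The promoter of Nampt is shown because Nampt is the targeted gene and because its transcription is known to follow the circadian clock, whose factors bind E-boxes. The 250 bases before the RefSeq start are given from GRCm38.p6, chr12:32820085-32820334, plus strand, a stretch inside the GENCODE span of Nampt but outside its exons, with the GC box (GGGCGG on either strand) in capitals.
Nampt promoter: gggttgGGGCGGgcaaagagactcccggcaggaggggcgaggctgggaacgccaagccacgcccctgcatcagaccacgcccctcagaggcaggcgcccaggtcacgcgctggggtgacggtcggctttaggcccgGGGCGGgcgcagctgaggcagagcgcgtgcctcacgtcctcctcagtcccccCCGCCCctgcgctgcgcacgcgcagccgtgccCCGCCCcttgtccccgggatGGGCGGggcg
This window is 75.6% G or C and held 5 GC boxes, a motif that 32.7% of 32851 promoter windows of this length hold at least once. The E-box CACGTG was not found in it, and 6.02% of all windows hold one.

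To ask whether the members differ between genotypes where Nampt is targeted, UMIs were summed over the hepatocyte nuclei of each mouse and scaled to CPM with TMM factors. Nampt stood at 92.2, 109 and 104 CPM in WT mice 1, 2 and 3 and at 92.3, 148 and 71.5 CPM in HNKO mice 1, 2 and 3. The groups overlapped, with the highest and the lowest mouse both labelled HNKO, and the log2 fold change was 0.03 (SE 0.27, 95% interval -0.59 to 0.65, edgeR FDR 0.985). Leaving out HNKO mouse 3 gave 0.25, whereas leaving out HNKO mouse 2 gave -0.31. The reads are 3′ tags with introns counted, and which exons the floxed segment covers is not given in the sources used here, so these counts do not check the deletion.

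None of the 8 members passed the threshold in hepatocytes, where 0% of 11810 genes did with edgeR. At an unadjusted p below 0.05 there were 698 genes, and DESeq2 called 21 genes but no member. With edgeR 35 genes passed with no count filter and 32 without HNKO mouse 2, again with no member. With 2 members above 0 and 6 below, the median log2 fold change of the list was -0.12 against 0.02 for all genes. These signs depend on the scaling: with total UMI counts in place of TMM factors, an alternative chosen after the values were seen, 5 members were above 0 and 3 below, with a median of 0.07 against 0.20 for all genes. The salvage enzyme Nmnat1 gave the widest difference. Its level was 4.63, 6.31 and 6.49 CPM in WT mice and 6.78, 7.99 and 12.6 CPM in HNKO mice, so every HNKO mouse lay above every WT mouse, which 6.42% of all genes tested also showed. The log2 fold change was 0.65 (SE 0.31, edgeR FDR 0.82), it rested on 243 UMIs in all, and it was 0.34 without HNKO mouse 3. The other 7 members overlapped, whereas 11.6% of all genes had groups apart in 1 direction or the other.

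The other salvage and Preiss-Handler enzymes overlapped between the genotypes. Nmrk1 was at 66.9, 68.7 and 73.3 CPM in WT mice and at 38.2, 67.5 and 74.8 CPM in HNKO mice, where HNKO mouse 1 alone was low (log2 fold change -0.21, SE 0.25, -0.39 without HNKO mouse 3 and 0.03 without HNKO mouse 1). Naprt was at 25.3, 30.5 and 22.8 CPM in WT mice and at 18.9, 21.8 and 22.9 CPM in HNKO mice (log2 fold change -0.31, SE 0.19). Naprt was lower in HNKO mice 1 and 2 than in any WT mouse, and HNKO mouse 3 lay within the WT values. Nadsyn1 ranged from 12.7 to 19.95 CPM in WT mice and from 13.1 to 20.8 CPM in HNKO mice (log2 fold change -0.02, SE 0.26, and -0.24 without HNKO mouse 3). Nmnat3 ranged from 167.8 to 186.8 CPM in WT mice and from 156.0 to 186.8 CPM in HNKO mice, with a log2 fold change of -0.04 (SE 0.16) and an interval from -0.42 to 0.33.

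Both NAD+ kinases also overlapped. Nadk was at 126.5, 128.1 and 135.1 CPM in WT mice and at 143.4, 119.4 and 77.1 CPM in HNKO mice, and the mouse with the lowest value was HNKO mouse 3 (log2 fold change -0.20, SE 0.24, and 0.02 without HNKO mouse 3). Nadk2 was at 115.7, 172.0 and 115.8 CPM in WT mice and at 111.6, 93.3 and 127.2 CPM in HNKO mice (log2 fold change -0.28, SE 0.22). The highest value was that of WT mouse 2, and the log2 fold change was -0.07 without this mouse.

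**Figure D1:**
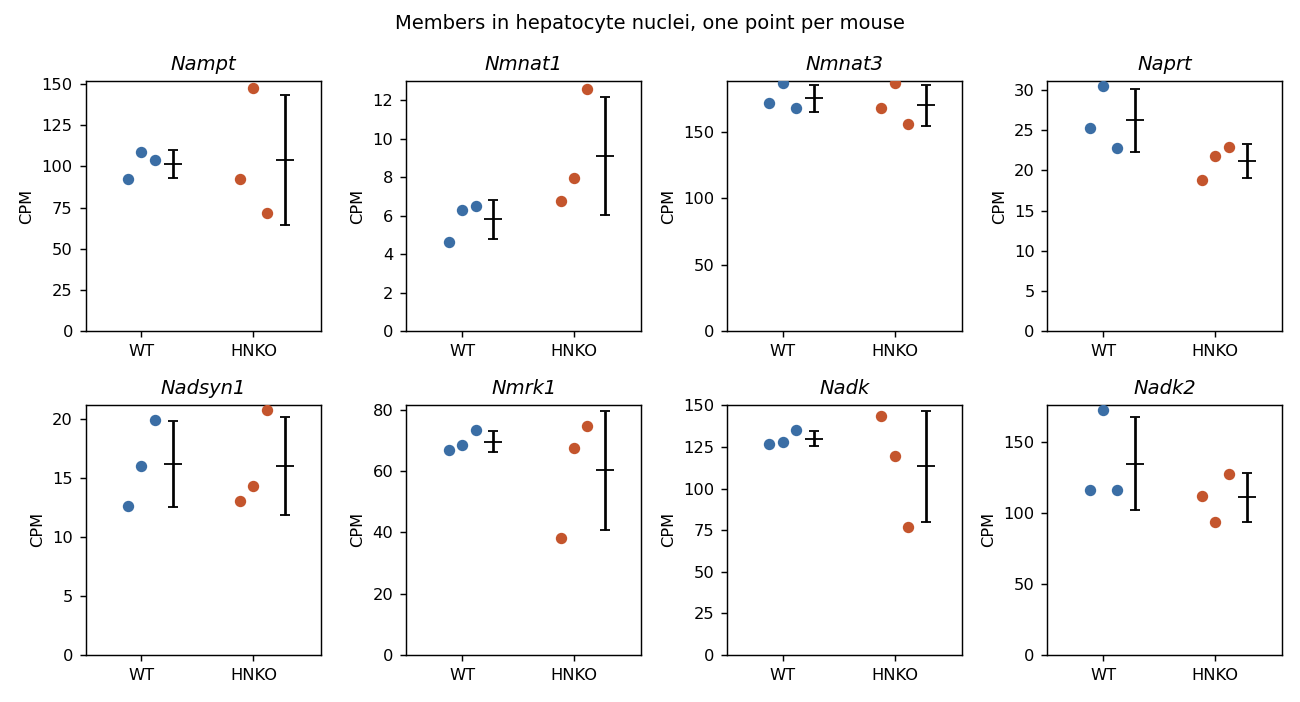
Level of each member in the hepatocyte nuclei of each mouse, in CPM with TMM factors, against genotype. Points are mice and the black marks are the mean and SD of 3 mice. The genotypes overlap for every member except Nmnat1.

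The share of hepatocyte nuclei with a UMI of a member, after each nucleus had been thinned to 1000 UMIs (no nucleus had fewer), was compared over mice as well. Nampt was found in 9.02% ± 2.58 (SD, n = 3) of WT nuclei and 9.89% ± 2.18 (SD, n = 3) of HNKO nuclei, and without thinning in 32.2% and 38.9%. No liver cell type is known to lack Nampt, so no background share from free RNA could be set beside it. Naprt was found in 3.74%, 4.21% and 3.20% of nuclei of the WT mice and in 2.96%, 3.05% and 2.71% of those of the HNKO mice, which did not overlap (exact permutation test, two-sided, p = 0.1, adjusted p = 0.8). That is the smallest p this design of 3 mice against 3 allows, so no share could pass 0.05. Without thinning, where depth differs between mice, the difference in Naprt had the opposite sign. The unthinned shares of Nmnat1 and Nmnat3 did not overlap either, both higher in HNKO mice. Without thinning, however, every member had the higher mean share in HNKO mice. Nuclei of HNKO mice were deeper, with medians of 4438 to 4912 UMIs against 3446.5 to 3973 UMIs in WT mice over all types. How many of all genes have shares that do not overlap was not computed, so no result on a member is drawn from shares that do not overlap.

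The levels of 5 clock genes were set beside Nampt. Arntl, a core activator, was at 11.7, 8.68 and 4.09 CPM in WT mice and at 20.3, 9.98 and 12.5 CPM in HNKO mice 1, 2 and 3. Dbp, a target of the clock, was at 24.1, 30.0 and 34.6 CPM in WT mice and at 9.10, 30.6 and 42.4 CPM in HNKO mice. HNKO mouse 1 had the highest Arntl and the lowest Dbp of the 6 mice, while its Nampt level lay beside that of WT mouse 1. Npas2, a partner of Clock, had 5.24, 1.05 and 2.88 CPM in the WT group, compared with 8.27, 1.83 and 4.16 CPM in the HNKO group. Nr1d1, a repressor of Arntl, had 24.4, 25.8 and 21.1 CPM in the WT group, compared with 17.9, 23.3 and 43.4 CPM in the HNKO group. Per3 had 21.3, 32.9 and 30.5 CPM in the WT group, compared with 11.2, 25.0 and 29.5 CPM in the HNKO group. All 5 genes overlapped between the genotypes, and none passed the threshold (lowest edgeR FDR 0.82).

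Among the genes whose levels ran most like Nampt over the 6 hepatocyte sums were Fads3, Irak1, Fads2 and Fnbp4, with Pearson's r between 0.979 and 0.982, given as a description over 6 sums whose mice were hashed and pooled together. Fads2, a fatty acid desaturase, was at 438, 790 and 700 CPM in WT mice and at 448, 1367 and 316 CPM in HNKO mice. Among 11809 genes 22 reached an r of 0.95.

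**Figure D2:**
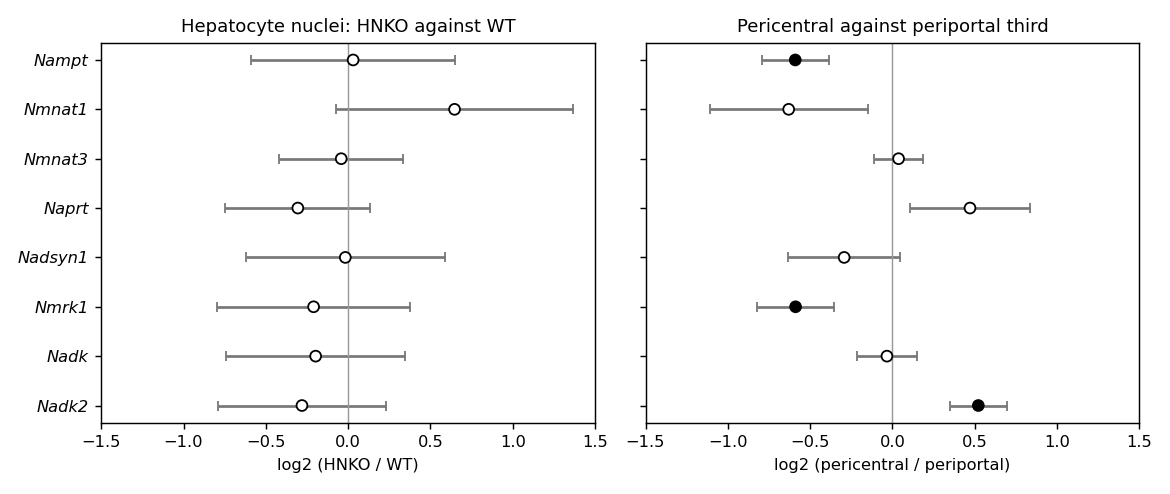
Log2 fold change of each member with its 95% interval, for HNKO against WT in hepatocyte nuclei (left) and for pericentral against periportal hepatocyte nuclei (right). Filled points passed an edgeR FDR of 0.05. All 8 intervals on the left include 0, and the 3 filled points on the right are Nampt and Nmrk1 below 0 and Nadk2 above 0.

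Whether the members differ along the liver lobule was asked within mice. Hepatocyte nuclei of each mouse were ordered by a pericentral index (the mean log level of 8 pericentral minus 8 periportal marker genes), and equal groups of 187 to 282 nuclei at the top and the bottom of the index, called the pericentral and the periportal zone, were compared within mice after these markers had been left out. Of the 8 members, 3 passed the threshold, with 2 lower and 1 higher in the pericentral zone. Over all 9423 genes 19.1% passed, 11% higher and 8.08% lower. Zones are ranges of a score and not cell types, and 66 to 132 nuclei of each mouse lay within 0.1 of a boundary.

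Nampt fell toward the central vein. In the pericentral zone it was at 73.6, 92.6 and 84.2 CPM in WT mice and 64.3, 104.3 and 65.4 CPM in HNKO mice, and in the periportal zone at 110.6, 126.8 and 121.8 CPM in WT mice and 120.5, 182.6 and 74.2 CPM in HNKO mice. It was higher in the periportal zone in 6 of 6 mice, least so in HNKO mouse 3. The periportal level was 1.51-fold the pericentral one (log2 fold change -0.59, SE 0.097, edgeR FDR 0.000232, and -0.68 without HNKO mouse 3).

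Nmrk1 also fell toward the central vein. Its pericentral level was 51.0, 65.9 and 70.3 CPM in WT mice and 29.1, 45.6 and 58.7 CPM in HNKO mice. The periportal level was 81.7, 85.3 and 78.8 CPM in WT mice and 48.4, 91.1 and 88.0 CPM in HNKO mice. Every mouse had the higher level on the periportal side (log2 fold change -0.59, SE 0.11, edgeR FDR 0.000771). Both members that make nicotinamide mononucleotide from salvaged precursors were higher in the periportal zone.

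Nadk2, the mitochondrial NAD+ kinase, rose toward the central vein. It was at 127.4, 205.6 and 135.1 CPM in the pericentral zone of WT mice and at 139.8, 123.1 and 145.1 CPM in that of HNKO mice. In the periportal zone the values were 93.2, 143.5 and 92.5 CPM in WT mice and 94.0, 70.6 and 120.5 CPM in HNKO mice. The pericentral level was higher in 6 of 6 mice, 1.44-fold the periportal one (log2 fold change 0.52, SE 0.082, edgeR FDR 0.000166). The cytosolic kinase Nadk was at 120.2 ± 25.3 CPM (SD, n = 6) in the pericentral and 122.4 ± 19.8 CPM (SD, n = 6) in the periportal zone, with an interval of the log2 fold change from -0.22 to 0.15.

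**Figure D3:**
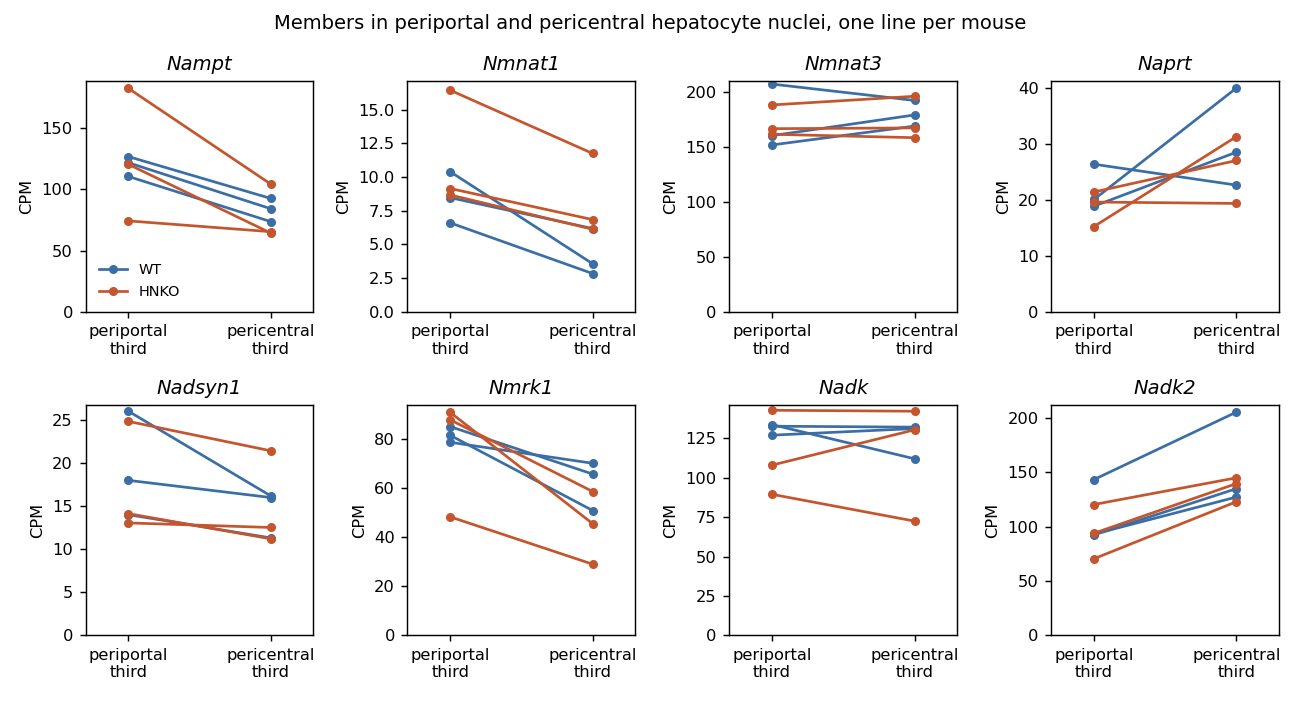
Level of each member in the periportal and pericentral zones of hepatocyte nuclei, in CPM with TMM factors, with 1 line per mouse. The lines of Nampt, Nmrk1, Nmnat1 and Nadsyn1 run downward to the pericentral zone in all 6 mice and those of Nadk2 run upward in all 6.

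The remaining members did not pass the threshold between zones. Nmnat1 was higher in the periportal zone in 6 of 6 mice at 6.60 to 16.5 CPM against 2.83 to 11.8 CPM in the pericentral zone, on 181 UMIs (log2 fold change -0.63, SE 0.23, edgeR FDR 0.063). Naprt leaned the other way, higher in the pericentral zone in 4 of 6 mice (log2 fold change 0.47, SE 0.17, edgeR FDR 0.066). The threshold was met in 3 of the alternatives tried, without WT mouse 1 (0.57, FDR 0.033), without HNKO mouse 1 (0.57, FDR 0.043) and with an index from thinned nuclei (0.50, FDR 0.0495). Nadsyn1 was higher in the periportal zone in 6 of 6 mice (log2 fold change -0.29, SE 0.16). Nmnat3 was at 177.0 ± 14.9 CPM (SD, n = 6) and 172.6 ± 20.9 CPM (SD, n = 6) in the pericentral and periportal zones.

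Whether the zone difference itself depended on genotype was tested as an interaction. No member passed, against 0.0106% of 9423 genes (1 gene), and 528 genes had an unadjusted p below 0.05. For Nampt the log2 difference was -0.13 (SE 0.20, interval -0.54 to 0.29), for Nadk2 0.03 (SE 0.17) and for Nmrk1 -0.38 (SE 0.21, edgeR FDR 0.92). The zone calls rest on comparing nuclei of the same mouse: without the mouse as a block, Nampt was at -0.61 (FDR 0.13), Nmrk1 at -0.58 (FDR 0.14) and Nadk2 at 0.51 (FDR 0.14), and 0 of the 8 passed. Periportal nuclei were deeper, with median counts of 4304 to 6531 UMIs against 3105 to 5435 UMIs in pericentral nuclei. With the index from thinned nuclei the same 3 genes passed beside Naprt.

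Other NAD genes also passed the threshold between zones, where, as above, 19.1% of all genes did. In the de novo list, which makes NAD+ from tryptophan, 3 of 8 genes fell in the pericentral zone, namely Kynu (log2 fold change -0.59), Ido2 (-0.41) and Tdo2 (-0.27), the last of which opens the route, and Afmid (0.49) rose. In the list of precursor handling genes, 5 of 10 were tested. Aox1 (1.35) and Aox3 (1.48), oxidases that degrade nicotinamide derivatives, and Nt5e (1.02), an ectonucleotidase, rose, while Nnmt (-0.45), which methylates nicotinamide, fell. In the transport and repair list, 6 of 9 were tested, and Slc25a51 (-1.31), the mitochondrial NAD+ carrier, and Noct (-0.48), a phosphatase of NADP+, fell. Between genotypes in hepatocytes, 0 genes of these lists passed, among 8, 7 and 7 tested, with log2 fold changes of the 10 named genes from -0.61 (Tdo2) to 0.84 (Nt5e).

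Across cell types, levels were compared as CPM of total UMIs in every type with at least 10 nuclei in a mouse, as a description without a test, because the types were defined by clustering these same nuclei. Hepatocyte RNA was also found in other nuclei. The 5 hepatocyte markers summed to 15.1% to 38.4% of their hepatocyte level in endothelial sums, 4.49% to 32.4% in stellate sums, 29.3% to 48.9% in CD45+ sums, 7.86% to 29.3% in Kupffer sums and 7.55% to 17.7% in cholangiocyte sums. Nampt exceeded the level that this share of its hepatocyte level would give, with its whole counting interval, in 3 of 3 Kupffer, 4 of 5 CD45+, 4 of 6 stellate and 2 of 6 endothelial sums. In cholangiocytes it did so in 2 of 3 sums. Nadk did so in 3 of 3 Kupffer, 2 of 5 CD45+, 4 of 6 stellate, 1 of 6 endothelial and 2 of 3 cholangiocyte sums, and Nmnat3 in 2 of 3, 1 of 5, 1 of 6, 0 of 6 and 2 of 3. Nadk2 did so in 1 of 3 Kupffer, 2 of 5 CD45+, 1 of 6 stellate, 1 of 6 endothelial and 2 of 3 cholangiocyte sums. For Nmrk1 it was 1 of 3, 1 of 5, 1 of 6, 1 of 6 and 0 of 3. Nadsyn1 did so in no sum, Naprt in 1 of 6 stellate sums and Nmnat1 in 1 of 3 cholangiocyte sums. HNKO mouse 3 had the highest marker share in every type but CD45+, and its hepatocyte level of these markers was the lowest of all mice.

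Nampt was highest in Kupffer nuclei, the resident macrophages of the liver, at 310.5, 134.7 and 202.2 CPM in HNKO mice 1, 2 and 3. WT mice had 4 to 6 Kupffer nuclei each, too few to enter, so means over types do not rest on the same mice. In HNKO mice alone the mean Nampt levels were 215.8 CPM in Kupffer, 158.4 CPM in CD45+, 107.7 CPM in hepatocyte, 81.1 CPM in stellate, 78.5 CPM in endothelial nuclei and 49.8 CPM in cholangiocytes. In WT mice alone hepatocytes came first at 95.5 CPM, before CD45+ (78.7 CPM), stellate (24.9 CPM) and endothelial nuclei (24.1 CPM). Over all mice, CD45+ nuclei, other leukocytes, were at 126.5 ± 59.3 CPM (SD, n = 5) and hepatocytes at 101.6 ± 24.1 CPM (SD, n = 6). Stellate nuclei held 53.0 ± 32.8 CPM (SD, n = 6), endothelial nuclei 51.3 ± 34.3 CPM (SD, n = 6) and cholangiocytes 49.8 ± 27.9 CPM (SD, n = 3). The order of neighbours was not firm: every pair of neighbours overlapped in range, and only the step from hepatocytes to stellate nuclei went the same way in 6 of 6 mice. The order also moved with the scaling and the nuclei kept. With TMM factors over all sums hepatocytes had 159.8 CPM and CD45+ nuclei 103.8 CPM. With nuclei whose own hashtag held at least 60% of the hashtag counts Kupffer nuclei had 372.7 CPM, stellate nuclei 106.8 CPM and hepatocytes 104.9 CPM. That filter left too few stellate nuclei for a test between genotypes, so this stellate mean rests on fewer than 6 mice and may rest on 1.

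Hepatocytes had the highest mean of the 6 types for 6 of the 8 members over all mice, the exceptions being Nampt and Nadk, both highest in Kupffer nuclei. In HNKO mice alone this held for 5 members, since Nadsyn1 was then highest in CD45+ nuclei at 18.4 CPM against 17.6 CPM in hepatocytes. The place of Nadk was not firm. In Kupffer nuclei it was at 67.9, 242.5 and 127.7 CPM in HNKO mice 1, 2 and 3, on 7, 9 and 12 UMIs. It lay above hepatocytes in 2 of 3 mice, and leaving out 1 mouse lowered its Kupffer mean to as little as 97.8 CPM. Pooled over mice Nadk was at 119.6 CPM in Kupffer and 119.2 CPM in hepatocyte nuclei. Nmrk1 had 65.6 ± 19.2 CPM (SD, n = 6) in hepatocytes and 38.2 ± 25.6 CPM (SD, n = 5) in CD45+ nuclei. Nmnat3 had 172.2 ± 18.9 CPM (SD, n = 6) in hepatocytes, 117.9 ± 65.4 CPM (SD, n = 3) in cholangiocytes and 37.6 ± 14.1 CPM (SD, n = 6) in endothelial nuclei. Nmnat1 was at 0 UMIs in all 6 stellate sums and in all 3 Kupffer sums, and Naprt at 0 in all 3 Kupffer sums. A floor of 3 UMIs corresponds to 17.3 to 52.9 CPM in a single stellate sum, above the 7.77 CPM of Nmnat1 in hepatocytes. A count of 0 in a single sum therefore does not show a lower level. Over the 171 stellate nuclei of all mice together the interval runs from 0 to 5.33 CPM (exact Poisson, counting error only). The hepatocyte level of WT mouse 1, 4.26 CPM, lies within this interval, and those of all other mice lie above it. The hepatocyte mean of WT mice alone is 5.47 CPM. The pooled interval leaves out the spread between mice, so no lower level of Nmnat1 in stellate nuclei is drawn from it.

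**Figure D4:**
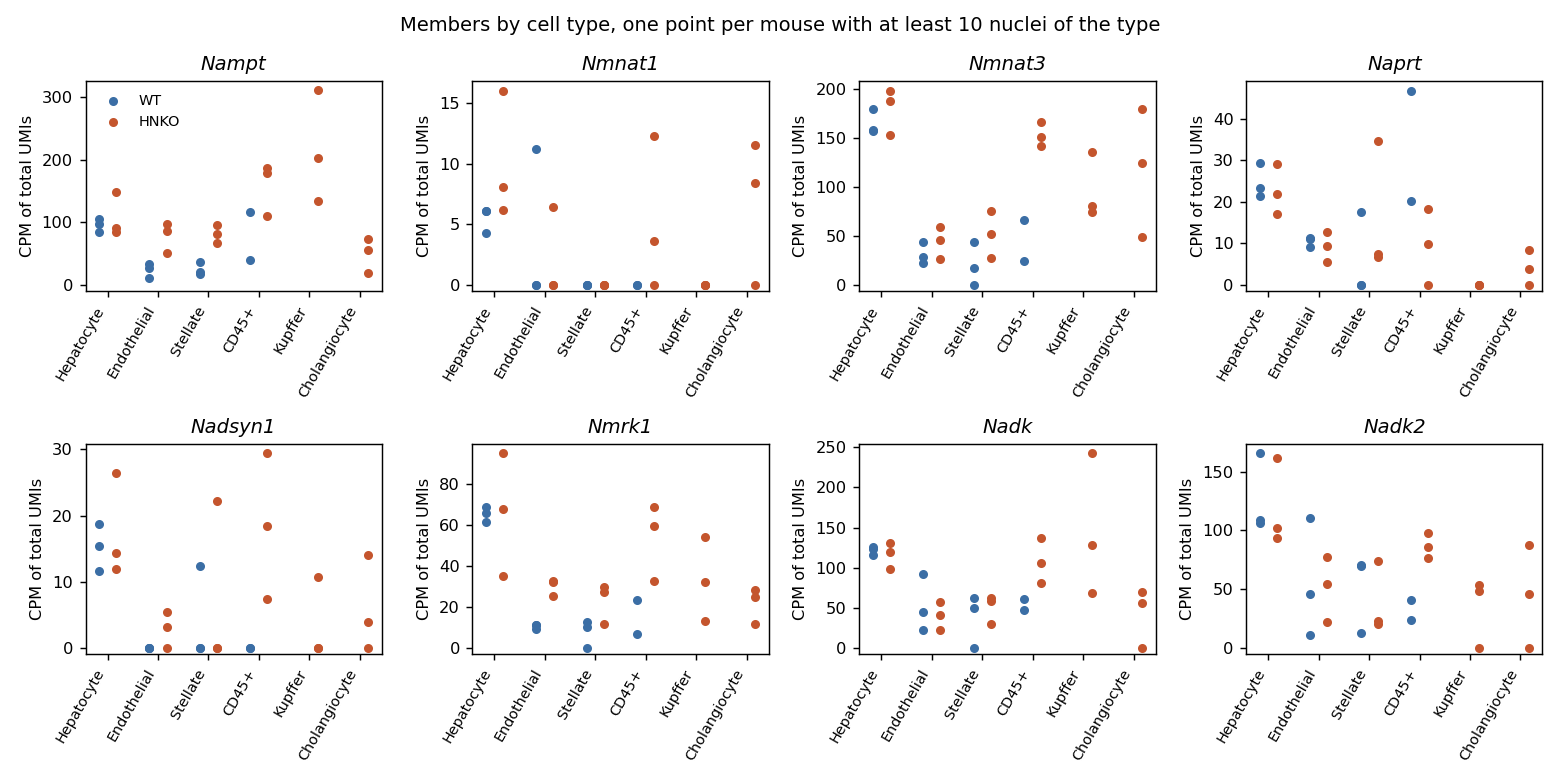
Level of each member by cell type, in CPM of total UMIs, with 1 point per mouse that has at least 10 nuclei of the type. WT mice have no points for Kupffer nuclei and cholangiocytes. Nampt lies between 134.7 and 310.5 CPM in Kupffer nuclei, above all endothelial and stellate points.

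In the authors' 21 clusters Nampt was highest in Kupffer nuclei, and among hepatocyte clusters it was highest in a periportal and lowest in a central one, given without a test. Among them, Periportal 1 had 165.2 CPM (95% Poisson interval 153.1 to 178.0, 690 UMIs), whereas Central HNKO 1 had 50.1 CPM (36.5 to 67.0, 45 UMIs) and Central 1 had 75.9 CPM (60.7 to 93.7, 86 UMIs). These intervals cover counting error only, and clusters largely follow single mice: 98.9% of Central HNKO 1 came from HNKO mouse 1 and 58.4% of Periportal 1 from HNKO mouse 2. Nadk2 had its highest values in Central HNKO 2 (198.9 CPM, 159.1 to 245.6), all from HNKO mouse 3, and in HNKO 3 (185.1 CPM, 165.4 to 206.4), 99.0% from that mouse. Nmrk1 was at 16.7 CPM (9.35 to 27.5) in Central HNKO 1, the lowest of the 21. Hepatocyte nuclei of HNKO mouse 2 lay mostly in Periportal 1, Hepatocytes 1, Central 1 and Hepatocytes 2, which WT mice shared. Those of HNKO mice 1 and 3 lay mostly in clusters with HNKO in their names.

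Outside hepatocytes the members had few UMIs, and none passed the count filter in endothelial or stellate nuclei. In stellate nuclei, Nampt had 3, 1 and 2 UMIs in WT mice and 14, 14 and 9 UMIs in HNKO mice, which were 37.1, 17.7 and 19.97 CPM against 80.9, 95.9 and 66.4 CPM. The groups did not overlap, with every HNKO mouse above every WT mouse, which 6.13% of the 2266 genes tested in stellate nuclei showed. The same was so in endothelial nuclei, as for 4.78% of 2743 genes, where the CPM values were 33.6, 11.0 and 27.7 in WT mice and 97.6, 86.7 and 51.3 in HNKO mice. Both shares cover genes past the count filter, in CPM with TMM factors, so Nampt is not among them and they are no background at its counts. Nmrk1 did not overlap in endothelial nuclei either, at 9.23 to 11.2 CPM in WT mice and 25.2 to 32.5 CPM in HNKO mice. That is 1 UMI in each WT sum and 8, 6 and 5 UMIs in HNKO mice 1, 2 and 3. The hepatocyte marker share of these HNKO sums would give 3.45, 3.69 and 5.68 UMIs of Nmrk1. Only in HNKO mouse 1 did the whole counting interval lie above that level. No share of all genes applies at these counts, so no result on Nmrk1 is drawn. WT counts of 1 to 3 UMIs are at the limit of counting, and in neither type did edgeR call a gene (160 and 104 genes at an unadjusted p below 0.05, and 1 gene each with DESeq2). With no count filter edgeR called 16 genes in endothelial and 29 in stellate nuclei, and without HNKO mouse 2 it called 47 in stellate nuclei, none of them a member. Hepatocyte markers in endothelial sums were at 15.1% to 27.5% of their hepatocyte level for the WT group and at 29.5% to 38.4% for the HNKO group. In stellate sums they were at 4.49% to 13.1% of their hepatocyte level for the WT group and at 7.99% to 32.4% for the HNKO group. That share of the hepatocyte Nampt level would give 8.33, 8.07 and 5.44 UMIs in the endothelial sums of HNKO mice 1, 2 and 3. Counted were 31, 16 and 8 UMIs, and the counting interval of HNKO mouse 3 included that level. In their stellate sums it would give 2.39, 1.73 and 3.98 UMIs, where 14, 14 and 9 UMIs were counted. The highest marker shares in both types were those of HNKO mouse 3, taken relative to its low hepatocyte level of 8931 CPM. In CPM its markers were at 3427 in the endothelial sum, against 4028 to 5959 in WT mice. In its stellate sum they were at 2893 CPM, against 1198 to 2837 CPM in WT mice. The part of hepatocyte RNA in the genotype difference was not tested.

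The difference between the genotype effect in hepatocytes and that in another type was tested with the mouse as a block. No member passed the count filter in endothelial or in stellate nuclei on their own, so members entered these tests through their hepatocyte counts, and no result on a member is drawn from them. Of all genes, 0.113% of 11517 passed against endothelial and 0.54% of 11473 against stellate nuclei (0.427% with a lower genotype effect in hepatocytes), no member among them. These shares also cover genes counted in hepatocytes alone. Of the NAD lists Tdo2 passed against stellate nuclei (log2 difference -2.31, FDR 0.0246), though 0 genes did without the block or with DESeq2. Stellate sums held Tdo2 at 40.5 to 66.9 CPM in the WT and 83.5 to 261.4 CPM in the HNKO group, with TMM factors. That is 2.53% to 3.18% and 7.07% to 29.0% of its hepatocyte level. Hepatocyte markers there stood at 4.49% to 13.1% and 7.99% to 32.4% of theirs, in CPM of total UMIs. The scales differ, so these shares were not ranked, and the part of hepatocyte RNA in the Tdo2 difference was not tested. When the endothelial and stellate nuclei of each mouse were summed, an analysis chosen after the values were seen, Nampt, Nadk and Nadk2 passed the filter in those sums alone. There Nampt had 6, 2 and 5 UMIs in WT mice and 45, 30 and 17 UMIs in HNKO mice. It thus passed the filter through the HNKO sums, where it was high. Its log2 difference was -1.71 (SE 0.47, edgeR FDR 0.23), and no result is drawn from it. Of the 4252 genes past the filter in those sums 4 passed the threshold, and of all 11928 genes 0.0335% did.

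In CD45+ nuclei 2 WT and 3 HNKO mice could be compared, and 3 members passed the count filter. Their values per mouse are in CPM with TMM factors, unlike the CPM of total UMIs used above to compare cell types. Nmnat3 had 79.8 and 30.8 CPM in WT mice, against 220.3, 185.4 and 178.6 CPM in HNKO mice (log2 fold change 1.77, SE 0.63, edgeR FDR 0.52), with 3 and 1 UMIs in the WT sums. Its log2 fold change was 1.36 without WT mouse 2 and 2.66 without WT mouse 1. Nampt was at 53.2 and 153.9 CPM in WT mice and at 234.6, 234.8 and 139.8 CPM in HNKO mice (log2 fold change 1.00, SE 0.61, edgeR FDR 0.71). That of Nampt was 0.43 without WT mouse 1 and 1.99 without WT mouse 2. Nmnat3 and Nadk (log2 fold change 0.92, SE 0.68) were higher in every HNKO than in every WT mouse, as were 13.8% of the 2703 genes tested. Nadk had 3 and 2 UMIs in the WT sums. All 3 members passed the count filter through their HNKO sums, where their counts were higher, so this separation is no result on them. None of the 3 passed the threshold, nor did any gene with edgeR, although 222 had an unadjusted p below 0.05, DESeq2 called 4, and edgeR called 23 with no count filter and 10 without HNKO mouse 2. WT sums held 15 and 16 nuclei against 26 to 68 in HNKO mice. The clusters behind the sums also differed: cluster CD45+ 1 gave 91 of 139 HNKO nuclei and 10 of 31 WT nuclei. Over all mice, in CPM of total UMIs, Nampt was at 180.3 CPM in CD45+ 1, 86.1 CPM in CD45+ 2 and 114.9 CPM in CD45+ 3. Nmnat3 was at 153.4, 134.4 and 69.6 CPM on that scale. The summed CD45+ markers were at 6116 and 6331 CPM in the WT sums and at 3542 to 3889 CPM in the HNKO sums, and the part of the cluster mix in the member values was not tested. Hepatocyte markers stood at 29.3% and 33.2% of their hepatocyte level in the WT sums and at 34.3% to 48.9% in the HNKO sums. That share of the hepatocyte Nmnat3 level would give 14.4, 9.36 and 15.3 UMIs in HNKO mice 1, 2 and 3. Counted were 46, 15 and 23 UMIs, with the whole counting interval above that level in HNKO mouse 1 only. In CPM the hepatocyte markers were at 6706 and 6331 in the CD45+ sums of WT mice 1 and 2. They were at 8089, 11060 and 4227 in those of HNKO mice 1, 2 and 3. The part of hepatocyte RNA in the genotype difference was not tested.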

How the data were processed

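Nuclei of 6 mice were sequenced as 2 RNA pools and 2 hashtag pools, and mouse and genotype were read from the deposited table of nuclei. The authors quantified UMIs with Alevin on GRCm38 with introns counted (Cell Ranger 5.0.1 is also named in the submitters' processing notes), removed negatives and multiplets by hashtag, and deposited estimated counts per gene and nucleus, of which 10.1% of values were not whole. The authors also deposited raw hashtag counts. The authors' cluster names were grouped into 6 types. A matrix of corrected values was not used. Doublets within 1 mouse were not called.

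Counts were summed per mouse and type, at least 10 nuclei per sum, rounded, and tested with edgeR 4.0.16 in R 4.3.3 (filterByExpr, TMM, quasi-likelihood F test, two-sided, Benjamini-Hochberg FDR below 0.05 over all genes). Zones and differences between types had the mouse as a block, since both sums come from the same animal. Alternatives were DESeq2 1.42.0, its size factors, total UMI scaling, no count filter, no block, leaving out each mouse, nuclei with a hashtag share of at least 60%, and other zone widths and depths. Counting intervals are exact Poisson intervals at 95%. Shares were compared by an exact permutation test. Named genes were all members, genes of 3 NAD lists past the threshold in any comparison, 5 clock genes and the 5 genes most like Nampt, of which 1 is not reported here. The members and lists were chosen with earlier results of these data known. The tests were tried on simulated data first.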

Additional observations from a re-analysis of the deposited data

How the results depend on the processing

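The zone calls of Nampt, Nmrk1 and Nadk2 held under every alternative except the fit with no replicate block, where the paired sums of a mouse were treated as unrelated and the count of members called went from 3 to 0 (Nampt -0.61, Nmrk1 -0.58, Nadk2 0.51). Leaving out 1 mouse at a time kept 3 to 4 members called between zones and moved the log2 fold change of Nampt from -0.68 to -0.53, of Nmrk1 from -0.67 to -0.50, of Nadk2 from 0.47 to 0.58, of Naprt from 0.35 to 0.57 and of Nadk from -0.10 to 0.02. Naprt was at 0.50 with an index from thinned nuclei. With total UMI counts in place of TMM factors, chosen after seeing the data, the same 3 genes passed beside Nmnat1 (-0.70, FDR 0.037), and Nmnat3 was at -0.047. With a hashtag share of at least 60%, Nmnat3 was at -0.021 and Nadk at 0.0154 between zones, and Naprt at 0.0723 in the zone by genotype term, where Nmnat1 was at -0.022 with the index split at its median. In that term, leaving out mice gave -0.35 to 0.24 for Naprt, -0.078 to 0.20 for Nadk and -0.10 to 0.17 for Nadk2.

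In hepatocytes, leaving out mice gave log2 fold changes of -0.31 to 0.25 for Nampt, -0.11 to 0.025 for Nmnat3, -0.24 to 0.16 for Nadsyn1, -0.39 to 0.032 for Nmrk1 and -0.40 to 0.024 for Nadk. No filter gave 0.0026 for Nadsyn1, and thinned nuclei, an alternative chosen after seeing the data, gave -0.00969 for Nampt and 0.017 for Nadk2. Total UMI counts gave 0.13 for Nmnat3, 0.20 for Nadsyn1 and 0.011 for Nmrk1, with the median of all genes moved from 0.02 to 0.20. The differences against other types rest for members on hepatocyte counts. Against endothelial nuclei, leaving out mice gave -0.52 to 0.53 for Nadk and -0.79 to 0.24 for Nadk2, and adding stellate nuclei gave -0.072 and 0.046. Against stellate nuclei Nadk2 ran from -0.40 to 0.64, and to -0.0065 with no replicate block. None of these passed the threshold, and the cause was not tested.

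In shares of nuclei, no thinning gave differences of 1.39 percentage points for Naprt and 2.50 for Nadsyn1, and thinning to 500 UMIs gave -0.0752 for Nampt, -0.25 for Nmnat3, -0.791 for Nadk and -2.17 for Nadk2. Leaving out mice gave -0.616 to 1.75 for Nampt, -1.20 to 1.24 for Nmrk1, -0.35 to 0.585 for Nadk and -0.531 to 2.90 for Nadk2. The count of members highest in hepatocytes was 6, 7 with TMM factors and 4 with a hashtag share of at least 60%, where some types rest on fewer mice. The hashtag alternative was not run for the tests in endothelial, stellate and CD45+ nuclei or between types, where too few nuclei remained. Depth limits the other types, where no member has more than 93 UMIs in any 1 of the endothelial, stellate and CD45+ types. The replicate block changed no other call of a member.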
